A study of Danio rerio with 12 samples.

Results

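The 7 genes described here encode cyclins of the G1 phase and the kinases they switch on. They were chosen by gene ID out of the 32057 genes of the deposited count table. They are CCND1 (ENSDARG00000101637), 2 genes that share the symbol CCND2 (ENSDARG00000051748 and ENSDARG00000070408), CCNE1 (ENSDARG00000098622), CCNE2 (ENSDARG00000098529), CDK2 (ENSDARG00000026577) and CDK4 (ENSDARG00000087937). Symbols are spelled as in the table that pairs them with the IDs, which writes many zebrafish genes in the capitals used for human genes.

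D-type cyclins are made in response to growth signals and bind CDK4 or CDK6, and these complexes begin to phosphorylate the RB family of proteins that hold back the E2F transcription factors. E-type cyclins then bind CDK2, complete that phosphorylation and drive entry into S phase. The protein p21, encoded by cdkn1a, binds both kinds of complex and blocks CDK2. In the follicle the dividing cells are the somatic cells around the oocyte, while the oocyte itself rests in meiotic prophase. In mouse, cyclin D2 is needed for granulosa cells to multiply under follicle-stimulating hormone, and in frog the egg stores cyclin E for the embryo.

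Bulk RNA sequencing covered 12 libraries from ovarian follicles of the primary growth stage, when the oocyte enlarges before yolk uptake, of zebrafish (Danio rerio) of the AB strain. There were 3 libraries each of wild type (cdkn1a +/+) and of heterozygotes (cdkn1a +/-) at 50 days post-fertilization (dpf), and 3 of each genotype at 8 months post-fertilization (mpf). Heterozygotes were studied because, per the series description, homozygous mutants die as embryos. Per the series title the gene was disrupted with CRISPR/Cas9, and the lesion, the number of mutant lines and the number of fish and follicles behind a library are not given in the sources used here, so the p-values measure the spread between these libraries, which may be technical.

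Totals ran from 31044931 to 96839220 estimated counts per library. cdkn1a (ENSDARG00000076554), the check of the genotype labels, was lower in each heterozygote library than in each wild-type library of its age. Its range was 0.422 to 0.519 against 3.37 to 3.87 CPM at 50 dpf and 0.397 to 0.651 against 0.668 to 1.13 CPM at 8 mpf; CPM stands for counts scaled to a common library total after TMM (trimmed mean of M-values) scaling. All 13 oocyte markers and all 15 matched markers of follicle somatic cells were counted in all 4 groups, among them GDF9 and DDX4 of the oocyte and gsdf and amh of the somatic cells. Scaling factors were lowest in the heterozygotes at 50 dpf (0.757 to 0.893, against 1.03 to 1.09 in wild type), with heterozygote replicate 1 of that age the lowest of all 12 libraries.

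At 50 dpf heterozygous follicles held less mRNA of the D-type cyclins CCND1 and CCND2 (ENSDARG00000051748) and of the E-type cyclin CCNE2. They held slightly more of CDK2, a difference of -0.0036 on the log2 scale with library size alone. Another D-type cyclin gene, ccnd3, which is not among the genes chosen here, was higher at this age. Its log2 fold change was 0.40 (SE 0.15, edgeR adjusted p = 0.0457), a call lost in 16 of 22 alternatives. CCNE2 was at 12.5% of the wild-type level, CCND1 at 16.8% and CCND2 (ENSDARG00000051748) at 45.0% in the fitted values, and CDK2 was at 126%. At 8 mpf CCND1 was at 31.8% and CCNE2 at 38.3% of wild type. In all, 4 of the 6 tested genes passed the threshold at 50 dpf (adjusted p under 0.05, edgeR quasi-likelihood test), 3 lower and 1 higher in heterozygotes, where 40.8% of all 18834 tested genes did (21.2% lower and 19.6% higher). These shares are the background for the members' counts. At 8 mpf 2 of 6 passed it, both lower, where 28.1% of all tested genes did (15.5% lower). The median log2 fold change of the 6 genes was -0.80 at 50 dpf and -0.44 at 8 mpf, against -0.07 and 0.01 over all tested genes. In whole follicles, fewer cells of a type and less RNA per cell cannot be told apart.

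**Figure D1:**
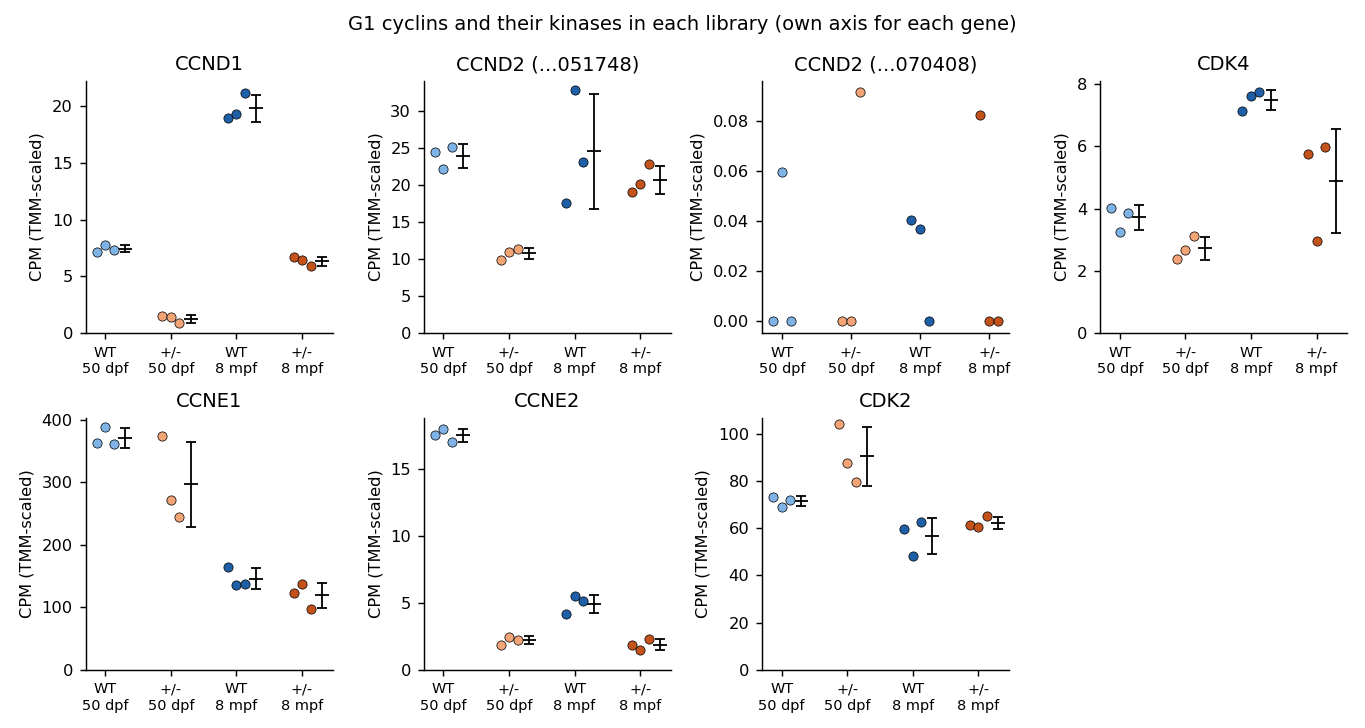
CPM of the 7 genes (vertical axis, a separate scale for each gene) in the 12 libraries, 3 for each genotype and age on the horizontal axis; points are libraries, and the bar beside them is the mean with its SD, left out for CCND2 ENSDARG00000070408 because it is near 0. CCND1 and CCNE2 lie lower in heterozygotes (+/-) than in wild type at both ages, and CCNE1 lies lower at 8 mpf than at 50 dpf in both genotypes.

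CCND1, the D-type cyclin that partners CDK4 and CDK6 in many dividing cells, measured 7.17, 7.77 and 7.34 CPM in the wild-type libraries against 1.52, 1.37 and 0.855 CPM in the heterozygous ones at 50 dpf. At 8 mpf it measured 19.0, 19.3 and 21.2 CPM in the wild-type libraries against 6.66, 6.40 and 5.89 CPM in the heterozygous ones. The 4 groups did not overlap, and from the highest they ran wild type at 8 mpf, wild type at 50 dpf, heterozygotes at 8 mpf and heterozygotes at 50 dpf. Heterozygotes were 5.96-fold lower at 50 dpf (log2 fold change -2.58, SE 0.18, edgeR adjusted p = 4.99e-07). At 8 mpf they were 3.14-fold lower (log2 fold change -1.65, SE 0.15, edgeR adjusted p = 7.02e-06). The 2 genotype effects differed by 0.92 on the log2 scale (SE 0.23, edgeR adjusted p = 0.0192), being smaller at 8 mpf. Without wild-type replicate 2 at 50 dpf the adjusted p of this difference was 0.0523, and in limma-trend on the authors' normalized values it was 0.171 with a pseudocount of 1 and 0.187 with 0.1.

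The gene rested on few counts in the young heterozygotes, 28 to 44 per library, whereas the young wild-type libraries held 261 to 436. Between the ages CCND1 rose in both genotypes, 2.67-fold in wild type (log2 fold change 1.42, SE 0.15, edgeR adjusted p = 9.74e-06) and 5.07-fold in heterozygotes (2.34, SE 0.18, edgeR adjusted p = 1.05e-06). Heterozygous follicles at 8 mpf held a mean of 6.32 ± 0.39 CPM (SD, n = 3), below the 7.43 ± 0.31 CPM of wild type at 50 dpf.

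CCND2 ENSDARG00000051748, the D-type cyclin gene of the symbol that was expressed, measured 24.5, 22.1 and 25.1 CPM in the wild-type libraries against 9.87, 11.0 and 11.4 CPM in the heterozygous ones at 50 dpf. At 8 mpf the values were 17.6, 32.9 and 23.1 CPM in the wild-type libraries against 19.0, 20.2 and 22.8 CPM in the heterozygous ones. The young heterozygotes lay below all other libraries, and the other 3 groups overlapped, with the widest spread in wild type at 8 mpf. The log2 fold change of heterozygotes against wild type was -1.15 at 50 dpf (SE 0.19, edgeR adjusted p = 4.73e-04) and -0.25 at 8 mpf (SE 0.18, edgeR adjusted p = 0.343). Without wild-type replicate 2 at 8 mpf, the highest library, the latter was 0.01. From 50 dpf to 8 mpf the gene rose 1.92-fold in heterozygotes (log2 fold change 0.94, SE 0.19, edgeR adjusted p = 9.47e-04). In wild type its age change was 0.04 (SE 0.18, edgeR adjusted p = 0.869).

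The genotype effect on this CCND2 gene was less negative at 8 mpf than at 50 dpf, by a log2 value of 0.90 (SE 0.26, edgeR adjusted p = 0.0371). Most single libraries could end this call. The adjusted p was 0.0812, 0.056 and 0.0827 without wild-type replicates 1, 2 and 3 at 50 dpf, and 0.0756 and 0.0676 without heterozygote replicates 1 and 2 of that age. It was 0.0853 without wild-type replicate 3 at 8 mpf, and 0.0553, 0.061 and 0.0865 without heterozygote replicates 1, 2 and 3 at 8 mpf. The difference itself stayed between 0.72 and 1.18 over the 21 alternatives, and with library size alone its adjusted p was 0.0587.

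The other CCND2 gene, ENSDARG00000070408, had no count in 7 of the 12 libraries and at most 5 counts in any. It held 2 counts in total in wild type and 3 in heterozygotes at 50 dpf, and 5 in each genotype at 8 mpf. It was removed by the filter on low counts and was not tested, and no difference was detectable at this depth. A count of 0 allows up to 3 counts, which is 0.0312 to 0.106 CPM depending on the library; these limits cover counting error only. How reads common to both genes of this symbol were assigned is not given in the sources used here.

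CDK4, the kinase of the D-type cyclins, measured 4.03, 3.25 and 3.87 CPM in the wild-type libraries against 2.39, 2.68 and 3.12 CPM in the heterozygous ones at 50 dpf. At 8 mpf it measured 7.13, 7.62 and 7.75 CPM in the wild-type libraries against 5.74, 2.95 and 5.97 CPM in the heterozygous ones. Heterozygote libraries lay below those of wild type at each age, narrowly at 50 dpf, and heterozygote replicate 2 at 8 mpf lay within the range of the young heterozygotes. The genotype difference did not pass the threshold at 50 dpf, at -0.45 on the log2 scale (SE 0.23, edgeR adjusted p = 0.142). Heterozygote replicate 2 at 8 mpf enters this contrast only through the filter, the scaling and the shared estimate of spread. Without it the difference was -0.46 with an adjusted p of 0.0283, and with library size alone the adjusted p was 0.0266.

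At 8 mpf the CDK4 difference was -0.61 on the log2 scale (SE 0.22, edgeR adjusted p = 0.0549), close to the threshold. Heterozygote replicate 2, at 2.95 CPM, was the lowest library of that age. With 1 library left out, the difference ranged from -0.79 to -0.36, with edgeR adjusted p-values of 0.0395 to 0.12. It passed in 7 of 22 alternatives, among them leaving out heterozygote replicate 1 at 50 dpf (adjusted p = 0.0399) or heterozygote replicate 3 at 8 mpf (adjusted p = 0.0395), upper quartile scaling (0.0307) and DESeq2 (0.0405). With age CDK4 rose 2.01-fold in wild type (log2 fold change 1.01, SE 0.22, edgeR adjusted p = 0.00208) and 1.80-fold in heterozygotes (0.85, SE 0.23, edgeR adjusted p = 0.00775). The genotype effect on CDK4 differed between the ages by -0.16 (SE 0.32, edgeR adjusted p = 0.787).

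CCNE1, an E-type cyclin, passed the test between the ages and not between the genotypes. At 50 dpf it measured 363, 389 and 361 CPM in the wild-type libraries against 374, 272 and 245 CPM in the heterozygous ones. At 8 mpf it measured 165, 135 and 137 CPM in the wild-type libraries against 123, 137 and 97.8 CPM in the heterozygous ones. The genotypes overlapped at both ages, and every library at 50 dpf lay above every library at 8 mpf. CCNE1 fell 2.55-fold with age in wild type (log2 fold change -1.35, SE 0.16, edgeR adjusted p = 2.22e-05). In heterozygotes it fell 2.49-fold (log2 fold change -1.32, SE 0.16, edgeR adjusted p = 2.76e-05).

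The genotype differences of CCNE1 did not pass the threshold, at -0.32 (SE 0.16, edgeR adjusted p = 0.128) at 50 dpf and -0.28 (SE 0.16, edgeR adjusted p = 0.212) at 8 mpf on the log2 scale. Heterozygote replicate 1 at 50 dpf, the library with the lowest scaling factor, decided the first of these. Without it the difference was -0.53 with an adjusted p of 0.0119. With library size alone the adjusted p was 0.00174 at 50 dpf and 0.0196 at 8 mpf. The genotype effects differed between the ages by 0.04 (SE 0.23, edgeR adjusted p = 0.943).

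CCNE2, the second E-type cyclin, had the largest fold change between the genotypes of the 6 tested genes at 50 dpf, and the largest after CCND1 at 8 mpf. It measured 17.5, 18 and 17.0 CPM in the wild-type libraries against 1.87, 2.46 and 2.23 CPM in the heterozygous ones at 50 dpf. At 8 mpf it measured 4.19, 5.48 and 5.17 CPM in the wild-type libraries against 1.85, 1.49 and 2.29 CPM in the heterozygous ones. Wild type at 50 dpf stood highest and wild type at 8 mpf next, and the heterozygotes of both ages overlapped each other below them. The log2 fold change of heterozygotes against wild type was -3.0 at 50 dpf (SE 0.18, edgeR adjusted p = 2.09e-07) and -1.38 at 8 mpf (SE 0.17, edgeR adjusted p = 7.15e-05).

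These genotype effects on CCNE2 differed by 1.61 on the log2 scale (SE 0.24, edgeR adjusted p = 0.0010), a call that held in all 21 alternatives. In wild type CCNE2 fell 3.52-fold from 50 dpf to 8 mpf (log2 fold change -1.82, SE 0.17, edgeR adjusted p = 2.90e-06). In heterozygotes, already low at 50 dpf, its age change was -0.21 (SE 0.18, edgeR adjusted p = 0.357). cdkn1a was also highest in young and next in older wild type, with log2 fold changes in heterozygotes of -2.94 at 50 dpf (SE 0.28, edgeR adjusted p = 6.79e-06) and -0.68 at 8 mpf (SE 0.26, edgeR adjusted p = 0.0679) and an age change in wild type of -2.04 (SE 0.25).

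CDK2, the kinase of the E-type cyclins, measured 73.2, 69.0 and 72.1 CPM in the wild-type libraries against 104, 87.5 and 79.7 CPM in the heterozygous ones at 50 dpf. At 8 mpf it measured 59.8, 48.1 and 62.4 CPM in the wild-type libraries against 61.3, 60.3 and 65.2 CPM in the heterozygous ones. The young heterozygotes were highest, young wild type next, and the genotypes overlapped at 8 mpf. The log2 fold change in heterozygotes was 0.34 at 50 dpf (SE 0.12, edgeR adjusted p = 0.0348) and 0.13 at 8 mpf (SE 0.12, edgeR adjusted p = 0.426), and these effects differed by -0.20 (SE 0.16, edgeR adjusted p = 0.451). CDK2 fell with age in heterozygotes, by 0.54 on the log2 scale (SE 0.12, edgeR adjusted p = 0.00186), and in wild type by 0.33 (SE 0.12, edgeR adjusted p = 0.0283).

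The higher CDK2 of young heterozygotes was a small difference that turned with the scaling: by library size alone the log2 fold change was -0.0036 (adjusted p = 0.974). With upper quartile scaling the adjusted p was 0.0871. Without wild-type replicates 1, 2 and 3 at 50 dpf it was 0.0717, 0.13 and 0.0783, and without heterozygote replicates 1 and 2 of that age 0.115 and 0.0597. Without wild-type replicates 1 and 3 at 8 mpf it was 0.0512 and 0.0505, and without heterozygote replicates 2 and 3 at 8 mpf 0.0611 and 0.057. The fall of CDK2 with age in wild type lost its call without any of wild-type replicates 1, 2 and 3 at 50 dpf (adjusted p = 0.0821, 0.0573 and 0.0721) or wild-type replicate 2 at 8 mpf (0.115).

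**Figure D2:**
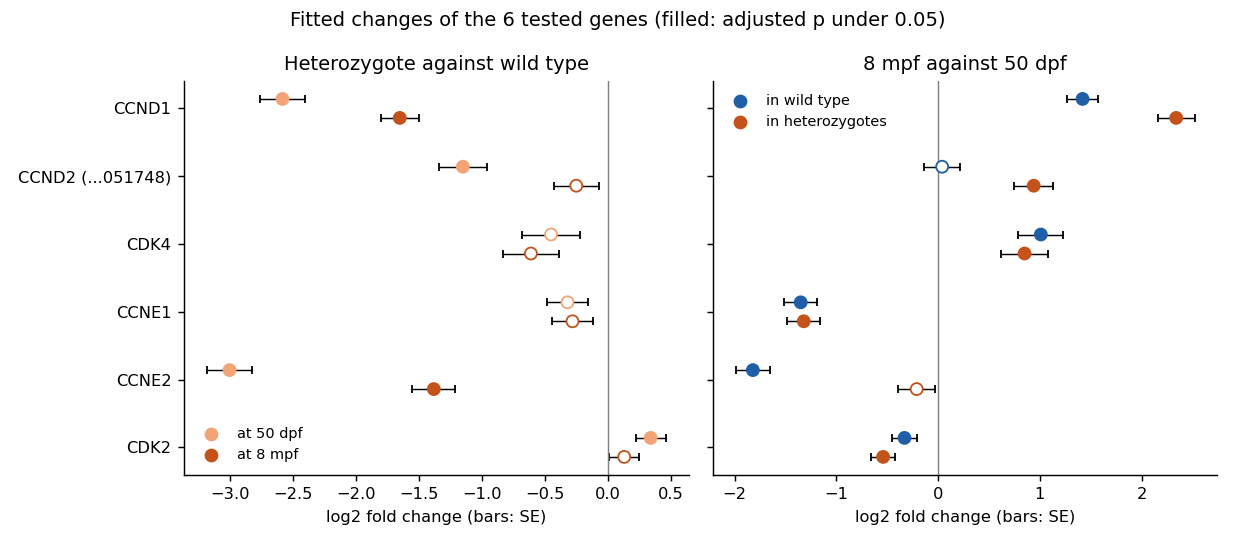
Log2 fold changes (horizontal axis) of the 6 tested genes (vertical axis), heterozygotes against wild type on the left and 8 mpf against 50 dpf on the right, with bars of 1 SE; filled points passed an adjusted p of 0.05 in edgeR and open points did not. On the left CCNE2 (-3.0) and CCND1 (-2.58) at 50 dpf lie farthest from 0, and on the right CCND1 and CDK4 lie above 0 and CCNE1 and CDK2 below it in both genotypes.

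Between the ages, 2 of the 6 tested genes rose and 3 fell in wild-type follicles, 5 in all, where 55.2% of all tested genes changed (28.7% higher and 26.5% lower). In heterozygotes 5 of 6 changed, 3 higher and 2 lower, where 53.9% of all genes did (28.5% higher and 25.5% lower). CCND1 and CDK4 of the D-type branch rose in both genotypes, and CCNE1 and CDK2 of the E-type branch fell in both. CCND2 ENSDARG00000051748 passed only in heterozygotes (0.94 on the log2 scale) and CCNE2 only in wild type (-1.82). Of the D-type branch outside the 7, ccnd3 rose in wild type (1.25) and heterozygotes (1.04). CDK6 fell in wild type (-1.14, SE 0.24) and was at 0.10 (SE 0.24) in heterozygotes. The genotype effect differed between the ages for 3 of 6 genes, each less negative at 8 mpf than at 50 dpf. Of all tested genes 13.5% differed, 6.88% with a higher signed log2 value at 8 mpf and 6.65% with a lower one. The age and genotype comparisons share libraries. No batch is named in the labels, and age cannot be told apart from when the follicles were collected or the libraries made.

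Ratios within a library do not depend on the scaling between libraries. CCNE2 counts were 4.82%, 4.61% and 4.70% of CCNE1 counts in the wild-type libraries against 0.50%, 0.905% and 0.909% in the heterozygous ones at 50 dpf. At 8 mpf they were 2.54%, 4.07% and 3.79% in the wild-type libraries against 1.5%, 1.09% and 2.34% in the heterozygous ones. The genotypes did not overlap at either age, so that CCNE2 lay lower relative to CCNE1 in each heterozygote library. On the log2 scale the ratio was lower by a mean difference of -2.66 at 50 dpf and -1.12 at 8 mpf.

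CDK4 counts were 5.51%, 4.71% and 5.36% of CDK2 counts in the wild-type libraries against 2.30%, 3.06% and 3.91% in the heterozygous ones at 50 dpf. At 8 mpf they were 11.9%, 15.8% and 12.4% in the wild-type libraries against 9.36%, 4.90% and 9.15% in the heterozygous ones. The balance of the kinases lay toward CDK2 in heterozygotes at both ages, by -0.78 and -0.83 on the log2 scale, and toward CDK4 at 8 mpf in both genotypes, by 1.36 in wild type and 1.31 in heterozygotes. Each of the 8 comparisons of these ratios gave p = 0.1 in an exact two-sided permutation test (adjusted p = 0.1), which is as low as 3 libraries in each group can give. The ratios are of counts, not per length of transcript, and do not say which gene had more mRNA molecules. The planned ratio of the CCND2 genes could not be formed because ENSDARG00000070408 had libraries without a count.

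**Figure D3:**
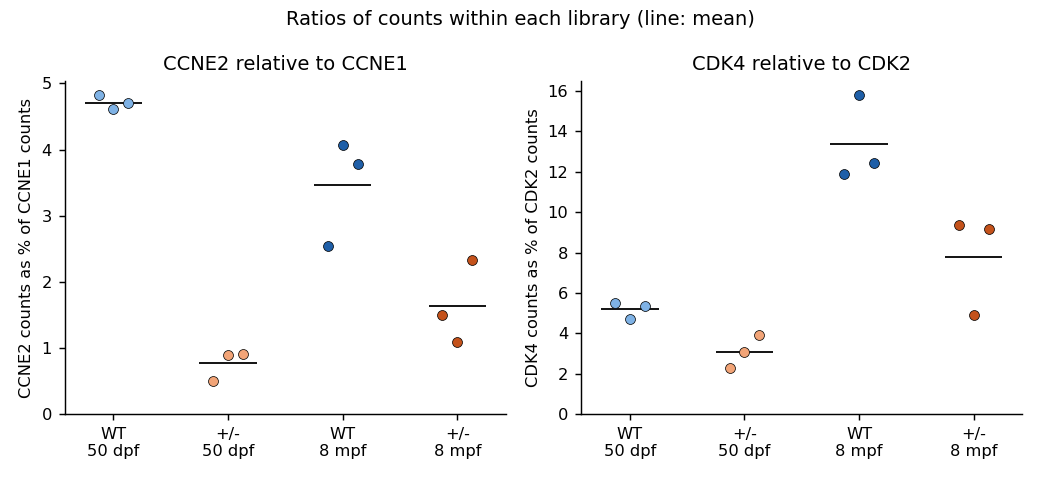
CCNE2 counts as a percentage of CCNE1 counts (left) and CDK4 counts as a percentage of CDK2 counts (right) in each of the 12 libraries, grouped by genotype and age on the horizontal axis; lines are group means of 3 libraries. In both panels the heterozygote libraries (+/-) lie below the wild-type libraries of the same age.

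The authors' normalized table carries a second view of these genes. For each gene and library the count divided by the normalized value was set against the median gene of the library; a gene scaled by the library's factor alone has the value 1. CDK2 and CDK4 were at 1.0 in all libraries, CCNE1 ranged from 0.966 to 1.02 and CCND2 ENSDARG00000051748 from 0.984 to 1.0. CCND1 ranged from 0.614 to 1.16 and CCNE2 from 0.753 to 1.55, and their ratios of highest to lowest, 1.89 and 2.06, were larger than those of 97.1% and 97.9% of the 12445 genes with over 20 counts in every library.

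The widest spread lay in the young heterozygotes, whose CCNE2 factors were 1.55, 0.753 and 1.34, whereas young wild type had 0.896, 0.899 and 0.896. Its authors' normalized values were 58.6, 160 and 82.1 in these heterozygotes and 964, 990 and 937 in wild type. For CCND1 the normalized values of the young heterozygotes were 74.6, 109 and 36.5, against 345, 473 and 329 in wild type. The gap between the genotypes was kept on this scale, and the libraries within the heterozygote group lay farther apart than in CPM. The step that made these factors is not given in the sources used here.

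**Figure D4:**
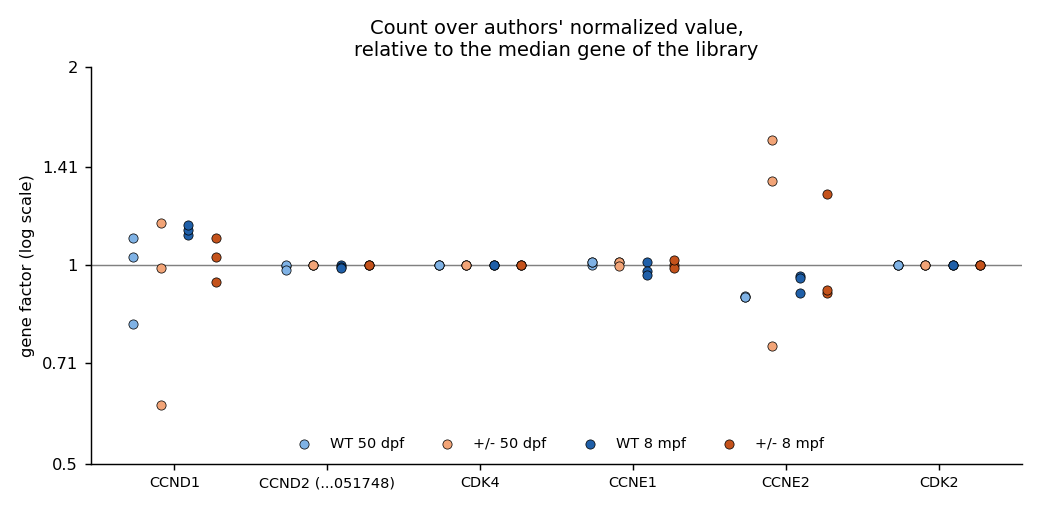
Count divided by the authors' normalized value, relative to the median gene of the same library (vertical axis, log scale), for the 6 tested genes (horizontal axis), 1 point per library colored by genotype and age. CCND1 and CCNE2 scatter between 0.614 and 1.55, and the other 4 genes stay between 0.966 and 1.02.

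Genes that the pathway links to these 7 were taken from 5 lists. The RB family, E2F and DP factors, which act directly downstream of the kinases, changed at 50 dpf in 12 of 13 tested genes, 4 higher and 8 lower in heterozygotes, with a median log2 fold change of -0.59. At that age 19.6% of all tested genes were higher and 21.2% lower, with a median of -0.07. E2F1, an activator of S-phase genes, measured 0.943 ± 0.277 CPM (SD, n = 3) in young wild type and 0.159 ± 0.0794 CPM in young heterozygotes (log2 fold change -2.59, SE 0.37, edgeR adjusted p = 1.83e-04). At 8 mpf it was higher in heterozygotes, at 2.25 ± 0.195 against 1.13 ± 0.195 CPM (0.99, SE 0.27, edgeR adjusted p = 0.016). In young heterozygotes E2F1 rested on few counts, since 3 counts are 0.0916 to 0.106 CPM in those libraries. E2F8, a repressor of the family, was lower at both ages, by -1.94 (SE 0.24) and -2.48 (SE 0.24) on the log2 scale. RBL1, which encodes the RB relative p107, was lower at 50 dpf at -1.30 (SE 0.17) and at -0.14 (SE 0.16, edgeR adjusted p = 0.551) at 8 mpf. RB1, at 33.2 mean CPM in young wild type, was higher at 50 dpf by 0.41 (SE 0.14, edgeR adjusted p = 0.0315) and at -0.12 (SE 0.14) at 8 mpf. Both TFDP1 genes, which encode DP factors, were higher at 50 dpf, by 0.58 (SE 0.14) and 0.28 (SE 0.11). E2F4 was lower at 50 dpf at -0.59 (SE 0.12) and higher at 8 mpf at 0.48 (SE 0.12). E2F5 was lower at both ages, at -0.60 (SE 0.08) and -0.47 (SE 0.08), and e2f6 was higher at both, at 0.68 (SE 0.13) and 0.64 (SE 0.13). RBL2, at under 1 mean CPM, was lower at both ages. It was at -1.73 at 50 dpf (SE 0.62, edgeR adjusted p = 0.0403) and at -2.03 at 8 mpf (SE 0.49).

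At 8 mpf the same list had 3 genes higher and 3 lower of 13, with a median of 0.01, where 12.6% of all tested genes were higher and 15.5% lower. The number higher at 50 dpf was 2 without wild-type replicate 2, without wild-type replicate 3 or without heterozygote replicate 2 of that age, and 0 with library size alone. The number lower ranged from 6 to 8 over the 22 alternatives.

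Genes of DNA replication and nucleotide supply, many of them known targets of E2F in mammals, were more often higher than lower in heterozygotes, except at 50 dpf with library size alone, where 6 were higher and 9 lower. At 50 dpf 14 of 36 tested genes were higher in heterozygotes and 4 lower, with a median of 0.28, and at 8 mpf 8 were higher and 0 lower, with a median of 0.12. Over all tested genes 19.6% were higher and 21.2% lower at 50 dpf, and 12.6% and 15.5% at 8 mpf. Of the MCM helicase genes at 50 dpf, MCM6 ENSDARG00000033231 rose from 238 ± 3.64 to 442 ± 11.6 CPM (log2 fold change 0.89, SE 0.08, edgeR adjusted p = 4.09e-06). MCM7 was higher by 0.95 (SE 0.14), MCM10 by 0.62 (SE 0.08) and MCM4 by 0.30 (SE 0.10). The other MCM6 gene, ENSDARG00000057683, was lower by -2.41 (SE 0.43, edgeR adjusted p = 8.70e-04), from 1.53 to 0.283 mean CPM, and MCM3 was lower by -1.27 (SE 0.46, edgeR adjusted p = 0.0437), from 1.49 to 0.629 mean CPM. MCM2 (0.30, SE 0.13) and MCM5 (-0.06, SE 0.09) did not pass the threshold. The other genes of the list lower at 50 dpf were at higher levels. MYBL2 was at -0.55 (SE 0.10), from 74.3 to 50.7 mean CPM, and GINS1 at -0.39 (SE 0.10), from 32.4 to 24.7 mean CPM. RRM2 ENSDARG00000020711, a subunit of ribonucleotide reductase, was higher at both ages, by 0.95 (SE 0.12) and 0.88 (SE 0.12). The other RRM2 gene, ENSDARG00000078069, passed at neither age, at -0.05 (SE 0.12) and 0.11 (SE 0.12). At 50 dpf it had 1447 mean CPM in wild type and 1400 in heterozygotes. At 8 mpf GINS4 was higher by 1.12 (SE 0.14), dhfr by 0.55 (SE 0.10) and TYMS by 0.38 (SE 0.09). At 8 mpf library size alone gave 3 higher and 1 lower, and ended the calls of dhfr (0.36) and TYMS (0.19) and, among the E2F genes, of e2f6 (0.44). At this age 14 genes were higher without heterozygote replicate 1 at 50 dpf, 4 without heterozygote replicate 1 at 8 mpf and 5 without heterozygote replicate 3 at 8 mpf. The count of 0 lower at 8 mpf in edgeR was 1 at an unadjusted p under 0.05, 1 in DESeq2, 1 without heterozygote replicate 1 at 50 dpf, 1 without wild-type replicate 2 at 8 mpf, and 0 in limma-trend.

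**Figure D5:**
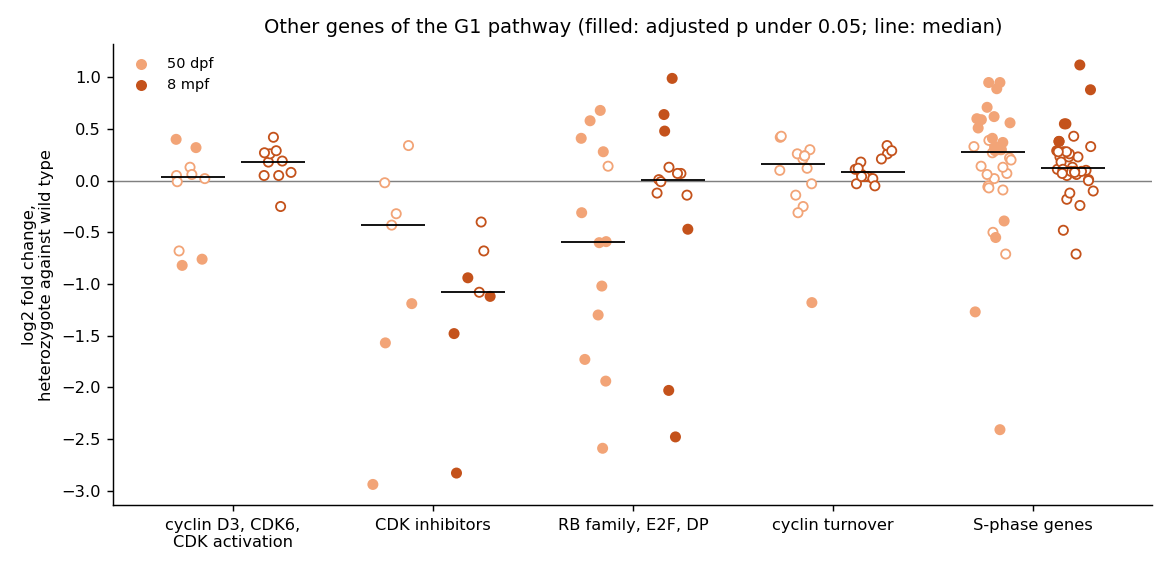
Log2 fold changes of heterozygotes against wild type (vertical axis) at 50 dpf and 8 mpf for the tested genes of 5 lists of the G1 pathway (horizontal axis), 1 point per gene, filled where the edgeR adjusted p was under 0.05, with a line at each list's median. The RB, E2F and DP genes lie mostly below 0 at 50 dpf, with a median of -0.59, and the S-phase genes more often above it, with a median of 0.28, though with library size alone 6 were higher and 9 lower.

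Of the CDK inhibitors, 3 of 7 tested genes were lower in heterozygotes at 50 dpf and 4 at 8 mpf, where 21.2% and 15.5% of all tested genes were lower. Their median log2 fold changes were -0.43 and -1.08, with 0 higher at either age in edgeR (0 also at an unadjusted p under 0.05), DESeq2 and limma-trend. The disrupted gene itself, cdkn1a, counts in this list and its medians. It was among the 3 genes lower at 50 dpf and not among the 4 at 8 mpf. Beside cdkn1a, cdkn1ca, a gene of the p57 type, was lower at both ages, by -1.57 (SE 0.16) and -0.94 (SE 0.16). CDKN2D, which blocks CDK4 and CDK6, was lower at 8 mpf by -1.12 (SE 0.22). The low-level CDKN1B gene ENSDARG00000029018 was lower by -1.19 (SE 0.41) and -1.48 (SE 0.35) at the 2 ages, the first of which lost its call in 5 of 22 alternatives, 4 of them leaving out 1 library of wild-type replicates 2 and 3 or heterozygote replicates 1 and 2 at 50 dpf. The abundant CDKN1B gene ENSDARG00000054271 was at -0.02 (SE 0.14) and -0.40 (SE 0.14) with adjusted p-values of 0.941 and 0.0565. cdkn1cb, at under 1 CPM, was lower by -2.83 at 8 mpf (SE 0.94, edgeR adjusted p = 0.041), a call lost in 11 of the 21 alternatives that tested it, among them leaving out any wild-type library or heterozygote replicate 2 or 3 at 8 mpf.

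Among the other partners and regulators of these kinases, 2 of 10 tested genes were higher and 2 lower at 50 dpf (19.6% and 21.2% of all tested genes), and 0 passed at 8 mpf in edgeR (28.1%). The list medians were 0.03 and 0.18. At an unadjusted p under 0.05, 1 was higher and 1 lower at 8 mpf, and 1 was higher in DESeq2 and 0 in limma-trend. WEE1, which inhibits CDK1 and CDK2 by phosphorylation, was lower at 50 dpf by -0.76 (SE 0.11, edgeR adjusted p = 2.10e-04). CDK6, the alternative partner of the D-type cyclins, was lower by -0.82 (SE 0.24, edgeR adjusted p = 0.017), a call lost without wild-type replicate 2 or heterozygote replicate 3 at 50 dpf. The 2 higher genes, CCNH (0.32, SE 0.11) and the third D-type cyclin gene ccnd3 (0.40, SE 0.15), lost their calls in 9 and 16 of 22 alternatives. The number higher was 0 or 1 in 17 of 22 alternatives, 10 of them without 1 library (any at 50 dpf, wild-type replicate 3 or any heterozygote at 8 mpf), and CCNH was at -0.0052 with library size alone. Of genes for cyclin breakdown, 1 of 14 was higher and 1 lower at 50 dpf, with a median of 0.17 at that age and 0.08 at 8 mpf. GSK3B, a kinase that marks D-type and E-type cyclins for breakdown in mammals, was lower by -1.18 (SE 0.23, edgeR adjusted p = 0.00164), from 2.52 to 1.1 mean CPM. The GSK3A genes of the list, at 107 and 24.8 mean CPM in young wild type, did not pass, each at 0.24 (SE 0.11 and 0.13). SKP1 was higher by 0.42 (SE 0.14), a call lost in 10 of 22 alternatives. These included leaving out any wild-type library or heterozygote replicate 1 at 50 dpf, and wild-type replicate 3 or heterozygote replicate 2 or 3 at 8 mpf. At 8 mpf 0 of 14 passed in edgeR, where 1 was higher and 0 lower at an unadjusted p under 0.05, with 1 higher in DESeq2 and 0 in limma-trend.

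Markers of other cells and of the follicle's own cell types moved with genotype beside these genes. Summed leukocyte markers (8 genes, none at 0) were at 17.1 to 24.5 CPM in young heterozygotes against 44.3 to 45.9 CPM in young wild type. The older groups had 17.9 to 31.0 and 32.6 to 45.2 CPM, with 4 of 8 lower at each age. Over all tested genes 21.2% were lower and 19.6% higher at 50 dpf, and 15.5% and 12.6% at 8 mpf. Liver markers (10 genes) summed to 25.2 to 32.2 CPM in heterozygotes and 239 to 249 CPM in wild type at 50 dpf, with 9 of 9 tested genes lower. At 8 mpf they summed to 11.7 to 16 and 6.28 to 7.14 CPM, with 7 of 9 higher in heterozygotes; TTR was at 0 in all groups but wild type at 50 dpf. Oocyte markers (13 genes) summed to 28411 to 36508 CPM in heterozygotes and 16167 to 19587 CPM in wild type at 50 dpf, with 9 higher and 2 lower. The 2 lower genes were figla (-0.75, SE 0.15) and PIWIL1 (-0.31, SE 0.08). At 8 mpf 2 of 13 oocyte markers were higher and 1 lower in edgeR (12.6% and 15.5% of all tested genes).

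Follicle somatic markers (15 genes) summed higher in heterozygotes at 50 dpf, at 517 to 611 against 414 to 441 CPM. Yet 6 of 14 tested genes were lower and 1 higher (21.2% and 19.6% of all tested genes). The higher gene, CYP11A1 ENSDARG00000002347, which encodes the enzyme that begins steroid synthesis, made up most of the sum, at 494 to 585 against 353 to 378 CPM. Without it the other 14 markers summed lower in heterozygotes, to 23.2 to 26.2 against 57.5 to 66.6 CPM at 50 dpf. At 8 mpf they summed to 11.5 to 13 against 14.9 to 18.1 CPM. Most of the remaining sum at 50 dpf was gsdf, while amh (-0.07), CYP19A1 (-0.02) and STAR (0.14) did not pass. At 8 mpf 1 of 14 tested somatic markers was lower and 0 higher in edgeR (15.5% and 12.6% of all tested genes). The leukocyte, liver and oocyte sums kept their order between the genotypes at both ages without their most abundant gene. For the oocyte this was zp2.1, and the egg coat genes zp3 and zp3b, at 8333 and 5463 mean CPM in young heterozygotes, still made up most of the remaining sum. At 50 dpf gsdf, a growth factor of gonadal somatic cells in fish, measured 15.6 ± 1.94 CPM in heterozygotes against 38.8 ± 3.75 CPM in wild type (SD, n = 3). Erythrocyte markers (7 genes) summed to 26.1 to 38.9 and 34.2 to 45.9 CPM at 50 dpf, with hbaa2 and gata1a at 0 in heterozygotes. Without hbaa1, which made up most of these sums, they were 2.71 to 3.39 CPM in heterozygotes and 5.76 to 7.23 CPM in wild type. Of 6 tested erythrocyte genes, 3 were lower and 0 higher at 50 dpf (21.2% and 19.6% of all tested genes). Stromal markers (10 genes) summed to 37.5 to 41.9 and 37.5 to 39.2 CPM at 50 dpf, with LUM at 0 in heterozygotes, and to 20 to 21.0 and 24.4 to 30.3 CPM at 8 mpf. Markers also moved with age. At 8 mpf against 50 dpf in wild type, 8 of 14 somatic markers were lower and 1 higher. Of 13 oocyte markers 7 were lower and 1 higher, and 9 of 9 liver markers were lower. Of 8 leukocyte markers 1 was lower and 5 higher. Over all tested genes 26.5% were lower and 28.7% higher. The part of these marker differences, by genotype or age, in the cyclin and kinase values was not tested.

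For each tested gene, the genes of at least 5 mean CPM whose log2 CPM followed it most closely over the 12 libraries were named by Pearson's r, as a description over libraries that share their groups and scaling. CCND1 was followed by CEP85L (0.984), OTOF (0.984) and FAM117A (0.977). CCND2 ENSDARG00000051748 was followed by adgrf3b (0.967), DNAJA2 (0.961) and MUL1 (0.945), and CDK4 less closely by tjap1 (0.925), BOC (0.921) and ddx43 (0.918). CCNE1 was followed by tspan5b (0.988), atp8a1 (0.985) and figla (0.983), the last an oocyte transcription factor at 238 CPM in young wild type and 33.4 CPM in older heterozygotes. CCNE2 was followed by SULF2 (0.989), ABCC12 (0.987) and DCK (0.981), of which SULF2 was at 24.3, 2.66, 6.46 and 1.87 CPM in young wild type, young heterozygotes, older wild type and older heterozygotes. CDK2 was followed by GTF2B (0.991), PSMB1 (0.988) and BYSL (0.987).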

How the data were processed

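Among the deposited files were 1 table of estimated counts, rounded to whole numbers, and 1 of the authors' normalized signal, which is linear, each with 32057 Ensembl gene IDs and 12 sample columns. That the counts are estimates was inferred from the values: 56.8% of 12445 genes with over 20 counts in every library had a factor of their own between the deposited tables, by a tolerance of 0.001. Per the submitters' processing notes, which give no roles, bcl2fastq, FastQC 0.11.5, HISAT2, StringTie, DESeq2 and build GRCz11 were named. Symbols matched 28988 IDs.

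The deposited counts were tested as they stand. edgeR's filterByExpr kept 18834 of 26339 genes with a count; TMM scaling, glmQLFit and glmQLFTest followed in 1 fit of 12 libraries with 4 group means. P-values are two-sided, adjusted by Benjamini-Hochberg over all tested genes in a contrast, with a threshold of 0.05. The SE is the absolute log2 fold change over the square root of F, and ± is the SD of 3 libraries. Log2 CPM used a prior count of 2. Depth was 31044931 to 96839220 counts. Alternatives were RLE, upper quartile and no scaling, DESeq2, no filter, a mean of 10 counts, a replicate block, only the groups compared, limma-trend on the authors' signal values with pseudocounts of 1 and 0.1, and leaving out each library. Those for the pathway lists, and the marker sums without the most abundant gene, were chosen after seeing the data.

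The members and lists were chosen with earlier results of these data known. List symbols were matched as written, in capitals, or in capitals without the paralog letter (23 gene matches). Genes named were the members, cdkn1a, up to 4 per pathway list and genotype contrast with the smallest p past the threshold, and the 3 most alike per member; others in the text were chosen after their values were seen. Replicate numbers did not pair the samples. The software was matplotlib 3.10.9, scipy 1.17.1 and Python 3.11.15, with DESeq2 1.42.0, limma 3.58.1 and edgeR 4.0.16 under R 4.3.3.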

Additional observations from a re-analysis of the deposited data

Results flagged for a closer look

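The genotype effect, heterozygote less wild type on the log2 scale, differed between 50 dpf and 8 mpf by edgeR's test of the difference for CCND1 (0.92), CCND2 ENSDARG00000051748 (0.90), CCNE2 (1.61) and cdkn1a (2.26), each lower in heterozygotes by less at 8 mpf. Among the pathway genes named by the rule, it also differed for E2F1 (3.58), GSK3B (1.4), CDK6 (1.24), RBL1 (1.16), GINS4 (1.1), dhfr (0.62) and WEE1 (0.52), with higher values at 8 mpf, and for MCM6 ENSDARG00000033231 (-0.61) and MCM10 (-0.39), with lower ones. The edgeR adjusted p was 0.0457 for WEE1, 0.038 for MCM10 and 0.029 for CDK6. For pathway genes the alternatives were not applied to this difference, and E2F1 rested on few counts in young heterozygotes (0.159 mean CPM).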

How the results depend on the processing

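Of 654 log2 fold changes of the 6 tested genes under the alternatives, 596 kept their direction and side of the threshold, 29 lost a call, 12 gained one and 17 changed sign. Of the 17, 1 had been called, CDK2 at 50 dpf with library size alone (-0.0036), where CCNH also went to -0.0052; the other 16 passed the threshold neither in the reported fit nor in the alternative. With library size alone these were CDK2 at 8 mpf (-0.041) and the age change of CCNE2 in heterozygotes (0.0080). The age change of CCND2 ENSDARG00000051748 in wild type was -0.012 with RLE, -0.115 with upper quartile scaling, -0.010 in DESeq2 and -0.05008 and -0.05015 in limma-trend with pseudocounts of 1 and 0.1, and ranged from -0.222 to 0.236 leaving out 1 library. Leaving out 1 library, its genotype effect at 8 mpf ranged from -0.45 to 0.010, and the difference between the ages from -0.084 to 0.219 for CCNE1 and from -0.33 to 0.099 for CDK4. Of the 6 genes, 4 were called at 8 mpf with library size alone and 2 or 3 in the other 21 alternatives (2 in the reported fit). Leaving out 1 library, the calls for the difference between the ages numbered 1 to 3, with 1 without wild-type replicate 2 at 50 dpf. Library size alone moved the median of all genes by -0.33 at 50 dpf and -0.18 at 8 mpf; upper quartile moved the age medians by -0.16 and -0.17.

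Over all tested genes, library size alone gave 1618 higher and 6749 lower at 50 dpf (3696 and 3995 in the reported fit) and 1337 higher at 8 mpf (2377), which was 1521 without heterozygote replicate 3 at 8 mpf. The difference between the ages was called for 2131 higher and 1987 lower genes without wild-type replicate 2 at 8 mpf (1295 and 1253), and for 821 lower without wild-type replicate 2 at 50 dpf. Among the lists, CDK inhibitors lower at 50 dpf went from 3 to 5 and regulators lower from 2 to 4 with library size alone, and genes of cyclin breakdown higher at 50 dpf ranged from 0 to 4 over the alternatives, with 9 single libraries moving the count from 1 (any wild-type library or heterozygote replicate 1 or 3 at 50 dpf, wild-type or heterozygote replicate 2 or 3 at 8 mpf). S-phase genes higher at 8 mpf numbered 13 in DESeq2.

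Same-numbered samples did not deviate together (correlations of -0.159 to 0.105). The fit with a replicate block called CDK4 at 8 mpf (-0.65, adjusted p = 0.0367) and changed no other call of the 6 genes. The causes were not tested. Depth limited CCND2 ENSDARG00000070408, at most 5 counts in a library.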
